A study of Homo sapiens with 6 samples.

Results

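The genes described here are 32 genes of the unfolded protein response and the integrated stress response, taken by symbol from a table of 58735 genes. All 32 symbols were found once each. By role they fall into 4 sensors and transcription factors, 14 chaperones and folding factors of the endoplasmic reticulum (ER), 3 genes of ER-associated degradation and 11 stress genes of the ATF4 type. RNA sequencing was done in TPC1, an established human papillary thyroid cancer cell line. For 3 libraries the cells had received siRNA that targets a circular RNA, hsa_circ_0000839, a group called si-circ_0000839 here, and for 3 the siRNA was a negative control (NC); cells were kept 60 hours in each case. Both groups are the same line in DMEM medium with serum and both went through transfection, so no library shows cells without an siRNA. Circular RNAs have no row of their own that was used here, and depletion of the target was not checked. Whether replicates are separate cultures is not stated in the labels, and the spread behind each p-value may therefore be technical.

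The unfolded protein response is the answer of a cell to unfolded protein in the ER. ERN1 (the IRE1 kinase and RNase), EIF2AK3 (the PERK kinase) and ATF6 are its sensors in the ER membrane. ERN1 splices XBP1 RNA, and XBP1 and cleaved ATF6 then switch on chaperone and degradation genes. PERK phosphorylates the translation factor eIF2, as do other kinases that respond to amino acid shortage, double-stranded RNA or heme shortage, and this shared arm is the integrated stress response. Its main effector is ATF4, a factor whose amount is set largely by translation, so its RNA level alone does not report its activity. Thyroid follicular cells normally secrete large amounts of thyroglobulin, which is folded in the ER with these chaperones.

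The promoters were searched for the letters of elements already linked to the chaperone arm and to the ATF4 arm. ATF6 and XBP1 act through the ER stress response element (ERSE), whose letters are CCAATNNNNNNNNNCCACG, and the related ERSE-II, in which ATTGG and CCACG stand 1 base of any kind apart. A promoter was available from RefSeq (GRCh38.p14) for 31 of the 32 genes, as a window of 250 bases before and 50 after the gene's start, and was searched on both strands. ERSE letters stood in 6 of the 31, as in 22 of 27305 promoters of the same length (0.0806%). ERSE-II letters stood in 3 of the 31 and in 0.0549% of all promoters. One or the other was found in 7 of 13 ER chaperones, in XBP1 and in HERPUD1, but in 0 of 11 ATF4-type genes. In the wider list of ER genes described below, 1 of 61 promoters held either (1.64%). The elements are known from this response, so these counts describe the list and test nothing. The HSPA5 promoter is shown for the 150 bases up to its start (minus strand, chr9:125241344-125241493), and the others as the stretch around each match, all 5′ to 3′ on the gene's own strand. Capitals mark the ERSE or ERSE-II letters, which read CGTGG first where the match lies on the opposite strand.
HSPA5: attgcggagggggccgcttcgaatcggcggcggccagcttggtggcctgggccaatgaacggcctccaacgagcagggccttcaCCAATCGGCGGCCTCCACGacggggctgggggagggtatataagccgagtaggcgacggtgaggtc
CALR (plus strand, chr19:12938372-12938414): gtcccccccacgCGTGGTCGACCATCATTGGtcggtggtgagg
SDF2L1 (plus strand, chr22:21642102-21642136): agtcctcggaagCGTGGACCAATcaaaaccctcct
XBP1 (minus strand, chr22:28800598-28800633): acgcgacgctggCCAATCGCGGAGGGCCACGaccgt

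HYOU1 held 2 ERSE-II matches, and HSP90B1 held 2 ERSE matches in opposite orientations, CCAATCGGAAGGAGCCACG at 194 bases and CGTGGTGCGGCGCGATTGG at 89 bases before its start. The core of the unfolded protein response element, TGACGTGG, matched only HYOU1 among the 31, where it overlaps the distal ERSE-II, and 0.795% of all promoters. ATF4 acts with C/EBP factors on a composite element (CARE), searched as TGATGNAAT. That letter string was in 0 of the 31 and in 1.02% of all promoters. The 8-letter form TGATGNAA, chosen after the first search gave no match, was in 4 of the 31, which were ATF3, CHAC1, ASNS and HERPUD1, and in 3.67% of all promoters. HERPUD1 thus held letters of both kinds, shown here in capitals with the CARE letters first and the ERSE-II letters after them (plus strand, chr16:56931954-56932047).
HERPUD1: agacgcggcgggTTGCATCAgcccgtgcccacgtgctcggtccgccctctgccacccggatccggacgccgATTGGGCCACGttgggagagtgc

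**Figure D1:**
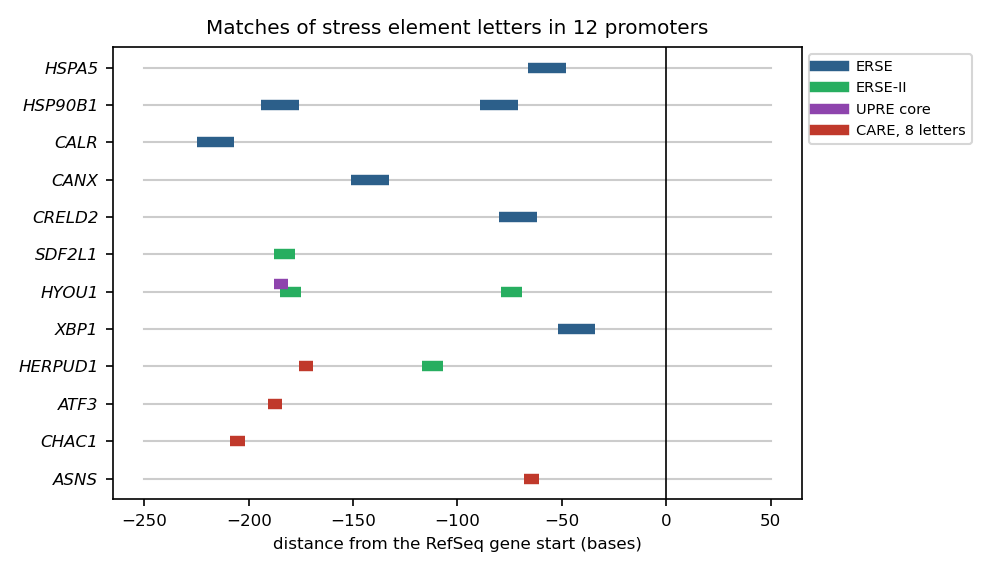
Positions of the matched letters in the promoters of 12 genes, in bases from the RefSeq gene start (vertical line), with grey lines for the searched window. ERSE and ERSE-II matches lie in the first 9 genes, between 34 and 225 bases before the start, and the 8-letter CARE form lies in HERPUD1, ATF3, CHAC1 and ASNS.

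The libraries held 18399558 to 19334633 reads, recovered from the FPKM values (fragments per kilobase of gene, scaled to library size), and 20533 to 21088 genes above 0. Of thyroid markers, PAX8 (96.3 FPKM after si-circ_0000839 and 95.8 in NC) and FOXE1 (11.6 and 10.9) were expressed, TG was at 0.129 and 0.143, and NKX2-1, TSHR and SLC5A5 were at 0 in every library. Epithelial markers KRT8 and KRT18 were abundant, KRT19 and EPCAM averaged under 1 FPKM in each group and CDH1 was at 0. Among markers of other cells, 3 of 4 leukocyte genes were at 0 and summed levels were 0.144 to 0.174 FPKM after si-circ_0000839 and 0.191 to 0.438 in NC, and 3 endothelial genes summed to 0.0409 to 0.116 against 0.0649 to 0.153. The fibroblast list of 4 summed to 14.3 to 18.9 and 20.02 to 25.04 FPKM, nearly all of it LUM (log2 change -0.49, limma adjusted p = 0.108), while COL1A1 was at 0.565 against 0.370 FPKM, higher without overlap, and COL1A2 and DCN were near 0; the part of this list in the results below was not tested. Of 3 plasma cell genes SDC1 carried the level, 64.3 to 72.0 summed against 64.3 to 78.7. A pair of libraries, replicate 1 of si-circ_0000839 and replicate 2 of NC, stood apart. Their median log2 differences from their group mates were -0.17 and -0.14 over the fifth of genes with the lowest GC content, and 0.16 and 0.15 over the fifth with the highest. Several of the results that rest on these libraries are also given without them.

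No gene of the response changed past the threshold after si-circ_0000839. Of 31 tested members, 0 passed an adjusted p of 0.05 in limma, where 0.384% of 10674 tested genes did. At an unadjusted p under 0.05 there was 1 member, VLDLR, which was higher, against 12.6% of all tested genes (6.31% higher and 6.31% lower). Voom gave 0 calls among the members, against 1.15% of all tested genes. It put 2 members under an unadjusted p of 0.05, VLDLR and HYOU1, against 13.3% of all tested genes. The groups did not overlap for 4 members, HSPA5, PDIA6 and VLDLR higher and HERPUD1 lower, where 18.1% of all tested genes had such groups (10.6% higher and 7.55% lower). The median log2 change was 0.03 over the 31 members and 0.0057 over all tested genes, both as differences of log2(FPKM + 1), a scale on which low genes show less change than they had.

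The intervals bound the size of these differences. Every one of the 31 limma 95% intervals lay within a 1.5-fold change of FPKM + 1 in either direction, and 30 of them held 0. The widest reach on that scale was that of VLDLR, up to a log2 change of 0.419, or 1.34-fold of FPKM + 1. For low genes such an interval reaches a larger fold in FPKM itself. With voom on the recovered reads, which needs no added constant, all 31 also lay within 1.5-fold, with a widest reach of 1.49-fold, again for VLDLR. Ratios of the mean FPKM ran from 0.890 for DDIT3 to 1.28 for VLDLR.

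**Figure D2:**
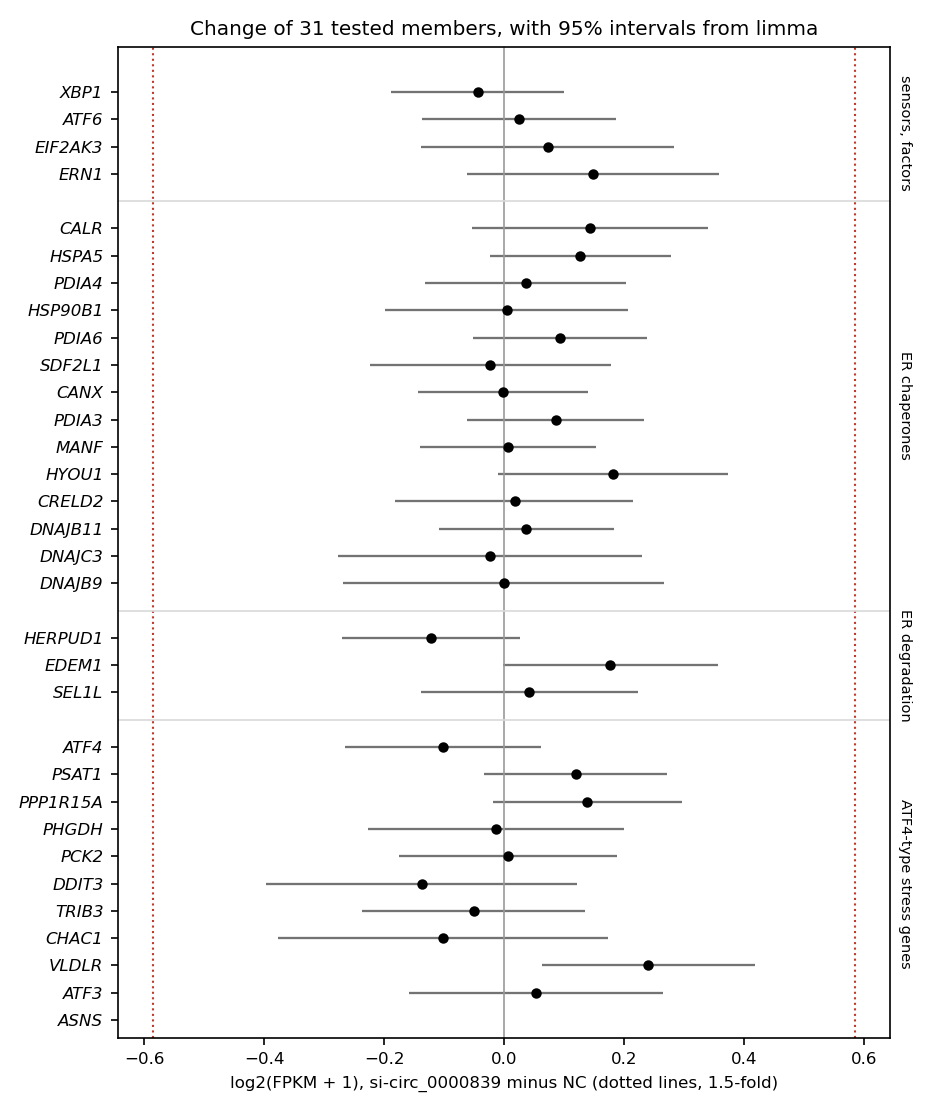
Difference in log2(FPKM + 1) between si-circ_0000839 and NC for the 31 tested members, grouped by role and ordered by level within a role. Bars give 95% intervals from limma, and lines stand at 0 and at 1.5-fold of FPKM + 1 (dotted). All bars lie inside the 1.5-fold lines and only that of VLDLR leaves out 0; ASNS was not tested.

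Of the sensors, ERN1 was the least abundant, at 1.22, 0.973 and 1.24 FPKM after si-circ_0000839 and at 1.03, 0.830 and 0.933 in NC, replicates 1 to 3. Its groups overlapped through 1 library on each side (log2 change 0.15, SE 0.09, limma adjusted p = 0.562). EIF2AK3 was at 2.64 ± 0.332 FPKM (SD, n = 3) against 2.46 ± 0.250 in NC, and ATF6 at 6.06 ± 0.371 against 5.94 ± 0.117. XBP1, the target of the ERN1 RNase, was far above its sensor at 36.7 ± 1.29 against 37.8 ± 0.919 FPKM. Gene-level values hold both the unspliced and the spliced XBP1 RNA and cannot tell them apart.

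The ER chaperones were the most abundant role, with 4 members under 15 FPKM and the other 10 above 30. CALR, the calcium-binding lectin calreticulin, ranked 49th of 10674 tested genes at a mean of 682 FPKM over the 6 libraries, and HSPA5, the HSP70 chaperone BiP, 122nd at 311 FPKM. Then came PDIA4 at 159, HSP90B1 (GRP94) at 134, PDIA6 at 111, SDF2L1 at 102, and the lectin CANX and the lectin-bound oxidoreductase PDIA3 at 90.8 and 90.3. MANF and HYOU1, a secreted stress factor and a large HSP70-like chaperone, stood at 65.4 and 35.4. CRELD2 and the J-domain proteins DNAJB11, DNAJC3 and DNAJB9, which are co-chaperones of BiP, were at 13.5, 10.5, 4.63 and 3.73 FPKM.

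HSPA5 was at 332, 328 and 315 FPKM in si-circ_0000839 replicates 1 to 3, and at 298, 305 and 289 in NC. Every si-circ_0000839 library was above every NC library, by a small margin (log2 change 0.13, SE 0.07, limma adjusted p = 0.481). The SD was 2.63% and 2.75% of the group means. Its promoter, with the ERSE, is the first of those shown above.

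CALR was at 772, 674 and 702 FPKM after si-circ_0000839 and at 633, 708 and 604 in NC. NC replicate 2 was above 2 of the 3 si-circ_0000839 libraries (log2 change 0.14, adjusted p = 0.552). HYOU1 was at 41.5, 35.5 and 36.0 FPKM against 32.8, 36.1 and 30.3, and NC replicate 2 again lay among the si-circ_0000839 libraries (log2 change 0.18, SE 0.09, limma adjusted p = 0.419). Without NC replicate 2 the adjusted p was 0.229 for HSPA5, 0.192 for CALR and 0.205 for HYOU1, with log2 changes of 0.15, 0.21 and 0.24. In that fit 7 members had an unadjusted p under 0.05, 4 higher and 3 lower, where 16.4% of all tested genes did. Without si-circ_0000839 replicate 1 the log2 changes were smaller, 0.11 for HSPA5 (limma adjusted p = 0.673), 0.09 for CALR (0.807) and 0.11 for HYOU1 (0.694). PDIA6 was at 115, 112 and 117 FPKM against 109, 103 and 110, with no overlap and a log2 change of 0.09 (adjusted p = 0.603).

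The remaining 10 chaperones had log2 changes from -0.02 (SDF2L1) to 0.09 (PDIA3). HSP90B1, the ER form of HSP90, was at 134 ± 13.4 FPKM against 133 ± 10.8, and CANX at 90.8 ± 2.37 against 90.8 ± 1.88. Over the 14 chaperones the median log2 change was 0.03, with 10 above 0 and 4 below. The summed level of the 14 was 1832 to 1940 FPKM after si-circ_0000839 and 1697 to 1838 in NC, which overlapped through NC replicate 2; CALR and HSPA5 make up much of that sum. With each gene counted alike, the median log2 deviation of the 14 from their means over the 6 libraries was 0.0614, 0.0192 and 0.0217 in si-circ_0000839 replicates 1 to 3 and -0.0473, -0.0057 and -0.0214 in NC. These did not overlap, by a margin smaller than the range within either group, where the pooled SD of the medians was 0.0224. The medians of all tested genes ran from -0.0012 to 0.0116 after si-circ_0000839 and from -0.0138 to 0.0052 in NC. PDIA3 has a transcribed pseudogene copy, PDIA3P1, at 4.32 against 4.28 FPKM, so a small part of its reads could be split between them.

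Changes of members with and without the ERSE or ERSE-II letters covered overlapping ranges. The 9 with a match had a median log2 change of 0.0045, from -0.12 for HERPUD1 to 0.18 for HYOU1. The 21 without one had a median of 0.04, from -0.14 for DDIT3 to 0.24 for VLDLR. These values describe the lists, and no test of the letters was made.

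The degradation genes went in different directions by small amounts. HERPUD1, which scaffolds the ubiquitin ligase complex of the ER membrane, was at 11.7, 10.9 and 11.5 FPKM after si-circ_0000839 and at 12.6, 12.7 and 12.2 in NC. Its groups did not overlap (log2 change -0.12, SE 0.07, limma adjusted p = 0.494). EDEM1, which hands misfolded glycoproteins to degradation, was at 10.1, 11.04 and 10.8 FPKM against 10.4, 8.88 and 8.70, overlapping through NC replicate 1 (log2 change 0.18, SE 0.08, adjusted p = 0.400). SEL1L, a partner of the ligase SYVN1, was at 5.29 ± 0.424 against 5.10 ± 0.354 FPKM.

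**Figure D3:**
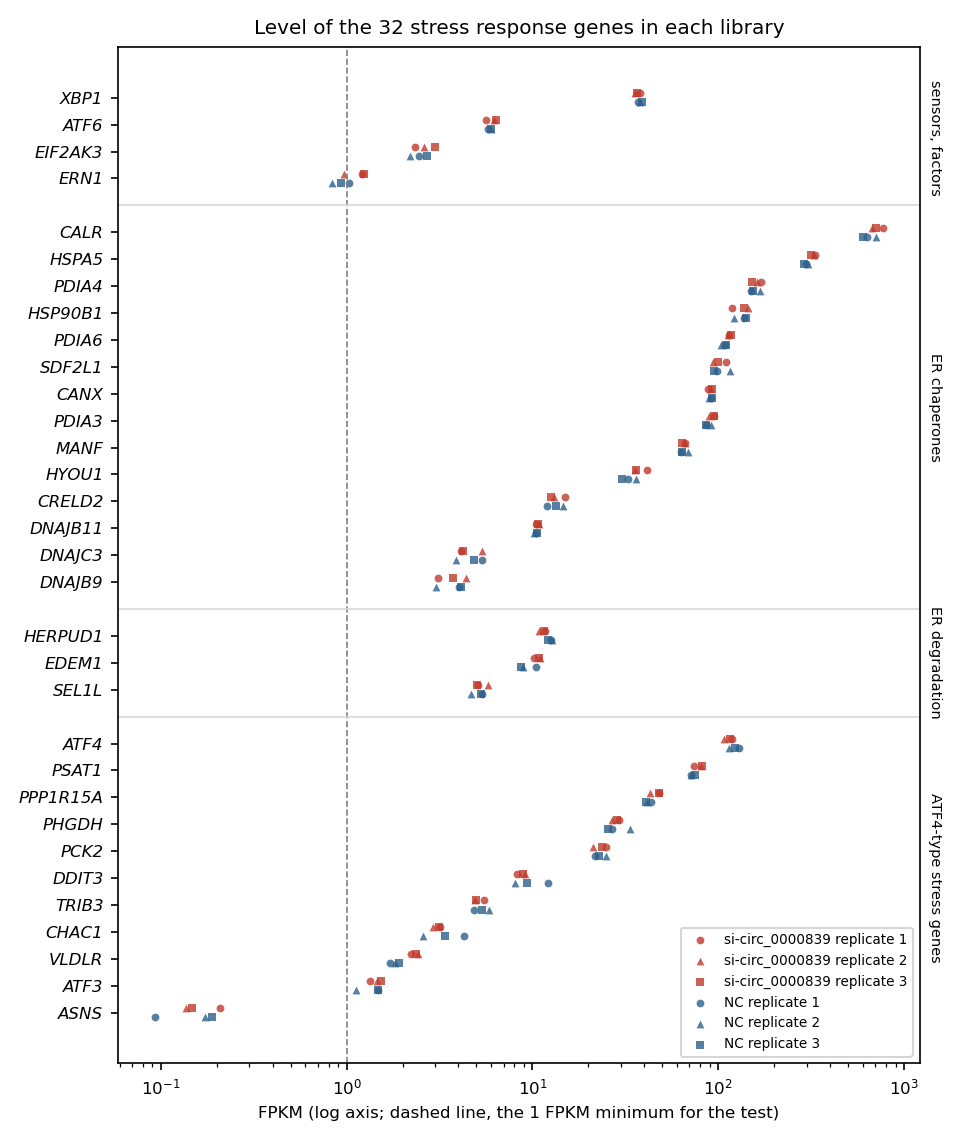
FPKM of the 32 genes in each of the 6 libraries, on a log axis, grouped by role and ordered by level; colours give the group, marker shapes the replicate, and the dashed line the 1 FPKM minimum for the test. CALR and HSPA5 stand highest, at means of 682 and 311 FPKM, and ASNS alone lies under the line in all libraries.

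The ATF4-type genes spanned nearly the whole range of levels. ATF4 itself was the most abundant, at 118, 108 and 116 FPKM after si-circ_0000839 and at 129, 115 and 124 in NC, with overlap through NC replicate 2 (log2 change -0.10, SE 0.07, limma adjusted p = 0.619). Its target DDIT3 (CHOP), a factor linked to cell death in prolonged stress, was at 8.22, 9.14 and 8.90 FPKM against 12.1, 8.08 and 9.36. CHAC1, a glutathione-degrading enzyme, was at 3.18, 2.91 and 3.14 against 4.31, 2.59 and 3.39.

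For DDIT3 and CHAC1 the spread lay mostly in NC, where the SD was 2.04 and 0.858 FPKM, against 0.478 and 0.143 after si-circ_0000839. NC replicate 1 was the highest and NC replicate 2 the lowest of all 6 libraries for CHAC1, and for DDIT3 as well. ATF4 had the same order of the 3 NC libraries. Limma gave log2 changes of -0.14 (adjusted p = 0.682) for DDIT3 and -0.10 (adjusted p = 0.783) for CHAC1. Without NC replicate 2 they were -0.26 (adjusted p = 0.269) and -0.24 (adjusted p = 0.270), and without NC replicate 1 they were 0.0066 and 0.04, so the direction of both rested on NC replicate 1. DDIT3 shares 982 and 1028 bases with MARS (27.4 FPKM over the 6 libraries) and MBD6 (9.89) on the other strand. On its own strand it shares 2769 bases with AC022506.1 (0 FPKM) and 97 with MIR616 (0.551). Neither the strand setting nor the counting of shared reads is given in the sources used here, so reads there cannot be assigned with certainty.

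The pseudokinase gene TRIB3 was at 5.12 ± 0.338 FPKM against 5.34 ± 0.507, and the stress factor ATF3 at 1.44 ± 0.0995 against 1.36 ± 0.210. PPP1R15A (GADD34), which directs the phosphatase that restores eIF2, was at 47.8, 42.7 and 48.2 FPKM against 43.3, 41.4 and 40.8, overlapping through si-circ_0000839 replicate 2 (log2 change 0.14, SE 0.07, limma adjusted p = 0.461).

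**Figure D4:**
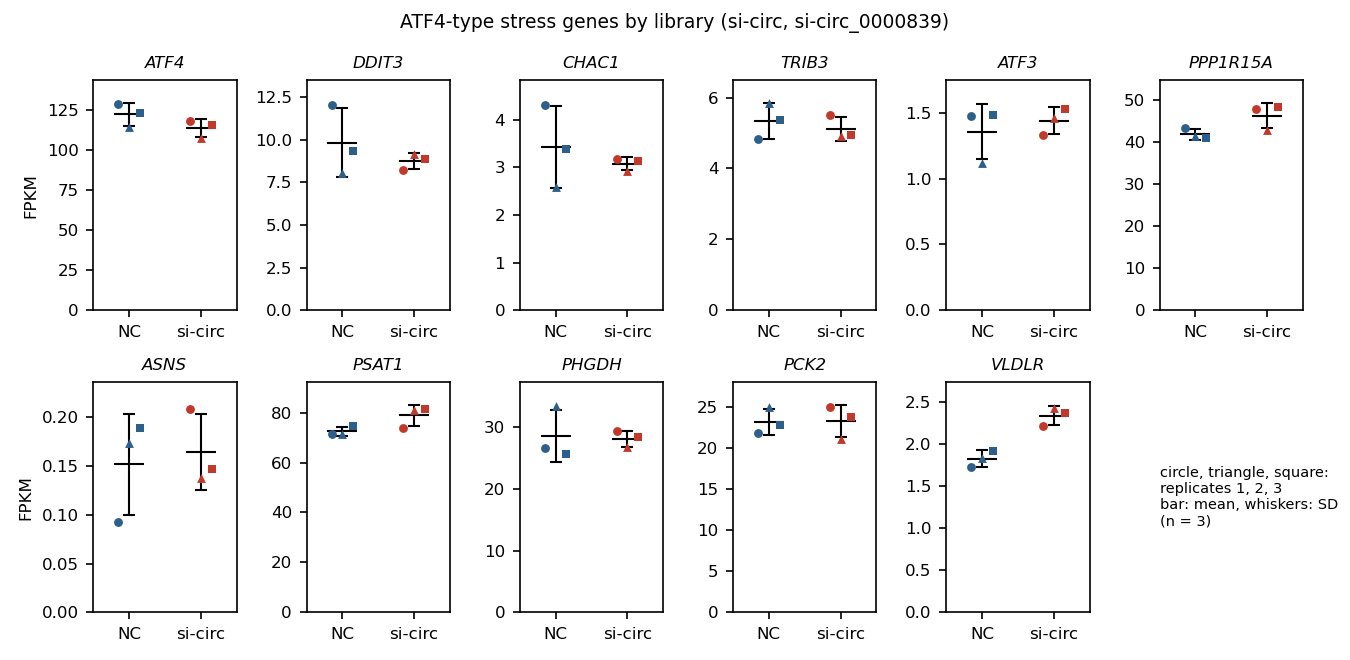
FPKM of the 11 ATF4-type genes by library, with the mean (bar) and SD (whiskers) of the 3 libraries of each group; each vertical axis starts at 0 and has its own scale. The NC libraries of DDIT3 and CHAC1 spread over a wider range than their si-circ_0000839 libraries, and VLDLR is the gene whose 3 si-circ_0000839 libraries all lie above the 3 NC libraries.

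VLDLR, a lipoprotein receptor that PERK and ATF4 signalling is known to raise, had the smallest p among the 32 genes. It was at 2.21, 2.43 and 2.36 FPKM after si-circ_0000839 and at 1.72, 1.83 and 1.92 in NC, 3 of 3 libraries above all NC libraries. The log2 change was 0.24 (SE 0.08, unadjusted p = 0.0127, limma adjusted p = 0.261). The ratio of the mean FPKM was 1.28, on a mean of 366 reads per library. Its log2 change stayed positive in all 16 alternatives that gave it a value, from 0.22 to 0.34, and its adjusted p lay between 0.109 and 0.585. VLDLR overlaps the antisense gene VLDLR-AS1, at a mean of 0.154 FPKM.

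The amino acid genes of the arm were unequal in level. PSAT1 and PHGDH, both enzymes of serine synthesis, stood at 78.9 ± 4.29 against 72.4 ± 1.98 FPKM and at 28.2 ± 1.31 against 28.6 ± 4.25, and PCK2, the mitochondrial phosphoenolpyruvate carboxykinase, at 23.3 ± 1.97 against 23.2 ± 1.63. ASNS, which makes asparagine and is a classical ATF4 target, had few reads assigned to it. It was at 0.208, 0.137 and 0.146 FPKM after si-circ_0000839 and at 0.0926, 0.173 and 0.189 in NC, on 13.2 reads per library on average. The groups overlapped, and 3 reads in a library would give 0.0342 to 0.0370 FPKM. ASNS shares 20425 bases with AC079781.5 (0.0142 FPKM over the 6 libraries) on the same strand. How shared reads were counted is not stated, so the low value need not mean that ASNS was silent. ASNS was the only one of the 32 under the minimum of 1 FPKM for the test. Its promoter held the 8-letter CARE form as TGATGAAA, from 68 to 61 bases before the start, and that of CHAC1 held it on the opposite strand as TTGCATCA, from 209 to 202 bases before the start.

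PSAT1 was at 73.9, 81.2 and 81.4 FPKM after si-circ_0000839 and at 71.3, 71.3 and 74.7 in NC, overlapping by si-circ_0000839 replicate 1 and NC replicate 3. Its log2 change was 0.12 (SE 0.07, limma adjusted p = 0.518), and 0.17 without si-circ_0000839 replicate 1 (limma adjusted p = 0.440). With each library corrected for GC content and gene length PSAT1 passed, at 0.18 (limma adjusted p = 0.0369). It was then 1 of 31 members to pass, where 2.4% of 10670 tested genes passed. Over the 10 tested ATF4-type genes the median log2 change was -0.0032, with 5 above 0 and 5 below.

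The offsets of the 2 libraries that stood apart moved with the GC content of the members' transcripts. All 10 members under 45% GC were lower in si-circ_0000839 replicate 1 than in the mean of its 2 group mates, and all 10 at 55% or more were higher. In NC replicate 2 the counts were 8 of 10 lower and 7 of 10 higher. DNAJB9 at 42.1% GC lay at -0.30 and -0.34 on the log2 scale in these libraries, and SDF2L1 at 66.1% lay at 0.18 and 0.25. The exceptions in NC replicate 2 were ATF6 and VLDLR, close to 0 at low GC, and 3 ATF4-type genes at high GC, of which CHAC1 lay at -0.43, ATF4 at -0.14 and PPP1R15A at -0.03. At middle GC, DDIT3 lay at -0.36 and ATF3 at -0.23. Pearson's r of GC content and offset over the 31 members was 0.792 for si-circ_0000839 replicate 1 and 0.427 for NC replicate 2, a description in which all points share the same libraries. GC content was taken over all annotated transcripts of a gene, and its part in these offsets was not tested.

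**Figure D5:**
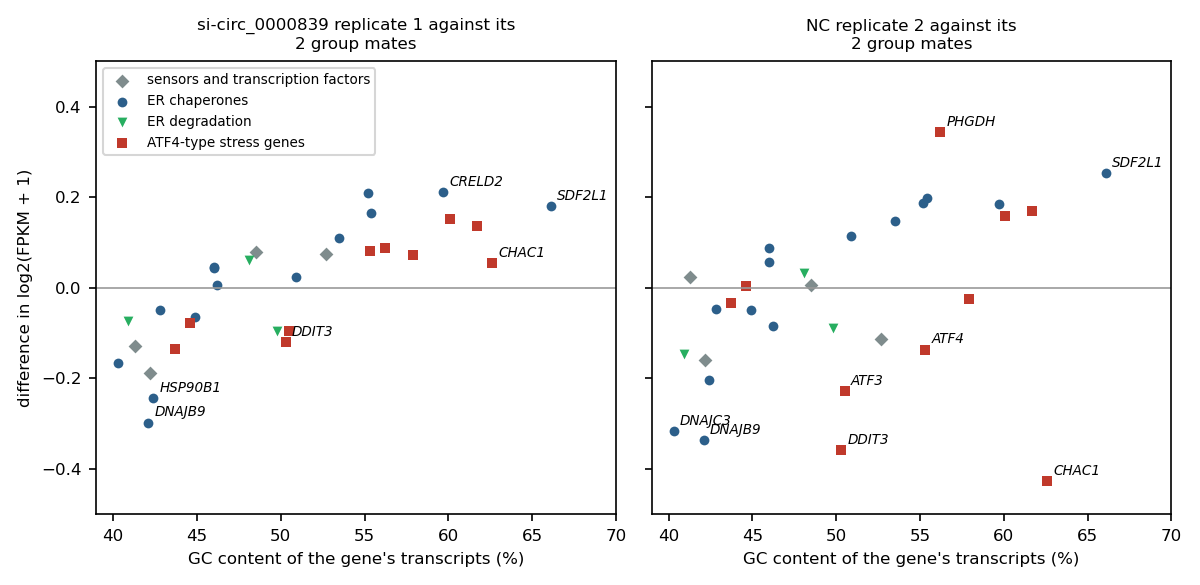
Difference in log2(FPKM + 1) of 1 library from the mean of its 2 group mates, against the GC content of each gene's transcripts in percent, for the 31 tested members with role given by colour and shape. Points climb with GC content in si-circ_0000839 replicate 1; in NC replicate 2 CHAC1, DDIT3, ATF3 and ATF4 lie below 0 at middle to high GC.

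Without both of these libraries 0 members passed, as with them. At an unadjusted p under 0.05 there were then 7 members, where 17.6% of all tested genes reached it. They were HSPA5, CALR, HYOU1, PSAT1 and VLDLR upward (log2 changes 0.13, 0.15, 0.17, 0.15 and 0.27) and ATF4 and CHAC1 downward (-0.17 and -0.26), at limma adjusted p from 0.172 to 0.267.

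In wider lists of the same pathways 0 genes passed as well. Of 71 tested genes of ER folding, transport, glycosylation and degradation, 10 had an unadjusted p under 0.05 (14.1%, against 12.6% of all tested genes), 6 higher and 4 lower, and the median log2 change was 0.03. Smallest in p were HSPA13, a microsomal HSP70-like protein, at 4.92 ± 0.676 against 7.10 ± 0.387 FPKM (log2 change -0.46, SE 0.09, limma adjusted p = 0.0827), and STT3B, a catalytic subunit of oligosaccharyltransferase, at 19.2 ± 1.72 against 24.9 ± 2.12 (log2 change -0.36, adjusted p = 0.117). Next came CREB3L1, an ER-bound factor, at 1.99 ± 0.159 against 1.38 ± 0.131 FPKM (log2 change 0.33, adjusted p = 0.175). None of these 3, which were picked by p, overlapped between the groups. Of the 71 genes, 12 had groups without overlap (16.9%, against 18.1% of all tested genes).

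Of 55 tested genes of the integrated stress response and amino acid supply, 7 had an unadjusted p under 0.05 (12.7%, against 12.6% of all tested genes), 2 higher and 5 lower, and the median log2 change was -0.0075. DDIT4, an inhibitor of mTORC1, was at 16.7, 13.98 and 15.3 FPKM against 22.5, 18.9 and 19.8 in NC, without overlap (log2 change -0.39, SE 0.09, limma adjusted p = 0.106). Groups did not overlap for 8 of the 55 (14.5%, against 18.1% of all tested genes). CEBPB, a C/EBP factor, was at 70.9 ± 7.34 against 87.0 ± 7.72 FPKM (adjusted p = 0.233), and BBC3, the death gene PUMA, at 12.3 ± 0.938 against 10.1 ± 0.836 (adjusted p = 0.241). HSPA13 passed with a 5 FPKM minimum (adjusted p = 0.0257), without si-circ_0000839 replicate 2 (0.0299), after removal of the GC and length trend (0.0247) and with voom (0.0210). DDIT4 passed with the 5 FPKM minimum (0.0432) and with voom (0.0393).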

How the data were processed

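FPKM values per gene and library were deposited by the authors in a single table, per the file headers. The submitters' processing notes list HISAT2 2.0.5 and featureCounts 1.5.0-p3 without stating their roles. The strand setting, build and scaling total used by the authors were not stated in labels or headers. All 58735 gene IDs had the coordinates of GENCODE release 29 (GRCh38). Reads were recovered by multiplying FPKM by gene length and dividing by the worth of 1 read in that library; 100% of nonzero values came out whole, with a tolerance of 0.01. No 2 replicates were alike within counting noise (chi-square per degree of freedom 3.14 to 10.8).

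The test was limma 3.58.1 (R 4.3.3, trended prior, two-sided) on log2(FPKM + 1), restricted to genes that averaged 1 FPKM or more, with Benjamini-Hochberg adjustment over all tested genes, and was tried on simulated data. Groups came from the sample titles. All members are named, and of each wider list the 3 genes with the smallest p, as none passed. Members and lists were chosen with earlier results of these data known. RPN2, SPCS2, VEGFA and the further genes of the wider lists in the closing observations were named outside that rule, after their values were seen. Precision is limited by 3 libraries per group. A value for 1 listed marker gene is not reported here.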

Additional observations from a re-analysis of the deposited data

How the results depend on the processing

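No named gene passed as reported, so a value could change side of the threshold only by passing. Of 638 values of the 38 named genes in 17 alternatives, 628 did not pass and 10 passed, in the direction reported. Not passing does not show a stable direction. The log2 change had the other sign in 8 of 17 alternatives for PCK2, 7 for MANF, 6 for CANX and 5 for HSP90B1. It kept its sign in all 17 for HSPA5, CALR, HYOU1 and ATF4, among others. With the replicate block 35 genes passed in all and 0 members. Deviations of same-numbered libraries had correlations of -0.15, -0.29 and 0.15, and not every library correlated best with its own number. The highest correlation, 0.35, joined si-circ_0000839 replicate 1 and NC replicate 2, the libraries that stood apart. Whether same-numbered libraries share more than a number cannot be told from these values. All genes called, 41 as reported, came to 4 with no filter, 68 at a minimum of 5 FPKM, 63 after quantile normalization, 26 without both libraries that stood apart, 256 with the GC and length trend removed and 123 with voom, and to 20 to 38 with 1 library left out. Members called were 0 in each of these but the GC and length trend, with 1. Members at an unadjusted p under 0.05, 1 as reported, were 2 with no filter and with voom, 6 after quantile normalization, TPM and GC and length correction, 7 without both libraries and 1 to 7 with 1 left out, the highest without NC replicate 2. The shares of all tested genes under 0.05 were 7.59% with no filter, 13.3% with voom, 14.8% after quantile normalization, 14.5% with TPM, 19.9% with GC and length correction, 17.6% without both libraries and 8.41% to 16.4% with 1 left out, against 12.6% as reported. The median log2 change of ER chaperones was 0.0503 after rescaling to TPM, where all genes shifted to 0.0280, and 0.0308 to 0.0635 with 1 library left out. That of ATF4-type genes was -0.0519 with the GC and length trend removed and -0.0429 to 0.0352 with 1 library left out. The shares of all tested genes called were 1.12% at 5 FPKM, 1.15% with voom and 2.4% with the GC and length trend removed. With 1 library left out they were 0.187% to 0.356%. Beside these, other ER genes called were 1 at 5 FPKM (HSPA13) and 2 with voom (HSPA13 and STT3B). They were 4 with the GC and length trend removed (these, RPN2 and SPCS2) and 0 to 1 with 1 library left out. Other integrated stress response genes called were 1 at 5 FPKM and with voom (DDIT4) and 2 with the GC and length trend removed (BBC3 and VEGFA). The cause was not tested. Voom, with median-ratio library sizes in place of TMM, and an untrended prior were added after the data were seen. edgeR and DESeq2 were not run, as the deposited unit is FPKM. The value of ASNS rests on 13.2 reads per library, and the part of its overlap with AC079781.5 in this was not tested.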

Other observations

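Other stress genes of the wider lists show which parts of the response were transcribed in these cells. The stress cytokine GDF15 was abundant, with 89.4 ± 8.32 FPKM in the si-circ_0000839 group against 99.4 ± 3.13 (SD, n = 3 each, limma adjusted p = 0.454), and the secreted glycoprotein STC2 was at 26.7 ± 3.27 against 27.7 ± 3.11. FGF21, the hepatic stress hormone, was at 0 in all 6 libraries. The 12 aminoacyl-tRNA synthetase genes ran from 5.24 (CARS) to 63.4 FPKM (SARS) in NC, 9 with a log2 change above 0, and 0 had an unadjusted p under 0.05. Of 4 listed genes of mitochondrial one-carbon metabolism, SHMT2 was at 104 against 111 FPKM, MTHFD1L at 19.2 against 19.3 and MTHFD2 at 16.0 against 16.6. ALDH1L2 was at 0.842 against 0.848, under the minimum for the test.

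SLC7A11, the cystine transporter subunit, was at 0.475, 0.680 and 0.620 FPKM after si-circ_0000839 and at 1.005, 0.724 and 0.991 in NC, on 137 reads per library. Its groups did not overlap, as for 18.1% of all tested genes. Its mean was under the 1 FPKM minimum, so it was not tested, and it was singled out after its values were seen. Its partner SLC3A2 was at 44.6 ± 1.77 against 46.3 ± 2.17 FPKM.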
